A study of Mus musculus with 3 samples.

Results

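GABA-A receptor subunit genes were followed through hippocampal RNA of 10-month-old mice. The 7 members, Gabra2, Gabra3, Gabra4, Gabra5, Gabrb1, Gabrb2 and Gabrd, were chosen by gene name, and each matched 1 of the 54532 genes in the deposited table. Further GABA-A subunit genes in the table are given for comparison. The study compared wild type mice (WT), PS19 mice and PS19 mice that carried 1 Zbp1 allele (PS19 Zbp1+/-), with 1 hippocampal library per genotype. PS19 mice express human mutant tau from a transgene under the mouse Prnp promoter, and the PS19 Zbp1+/- mice carry this transgene too. Zbp1 encodes a sensor of Z-form nucleic acids. All mice were on a C57BL/6 background. The labels give no substrain, sex, number of animals per library or littermate status.

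GABA-A receptors are chloride channels opened by the transmitter GABA, and they carry most fast inhibition in the brain. Each channel is a ring of subunits, usually of alpha and beta subunits joined by a gamma or a delta subunit, and the alpha subunit largely sets where the channel sits and which drugs it binds. In the hippocampus, alpha2 and alpha3 subunits are mostly found at synapses, while alpha5 subunits of pyramidal neurons and alpha4 subunits paired with delta on dentate granule neurons carry the tonic current outside synapses.

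The members lie in 5 places in the genome, given in the GRCm38 coordinates of the deposited table. Gabra2 (ENSMUSG00000000560; chromosome 5, 70957597 to 71095849, minus strand), Gabra4 (ENSMUSG00000029211; chromosome 5, 71569749 to 71658308, minus strand) and Gabrb1 (ENSMUSG00000029212; chromosome 5, 71658113 to 72149037, plus strand) share a cluster with Gabrg1. Gabra5 (ENSMUSG00000055078; chromosome 7, 57407672 to 57510059, minus strand) lies beside Gabrg3. Gabrb2 (ENSMUSG00000007653; chromosome 11, 42419757 to 42629028, plus strand) lies beside Gabra6. Gabra3 (ENSMUSG00000031343; chromosome X, 72432681 to 72656848, minus strand) is X-linked, and Gabrd (ENSMUSG00000029054; chromosome 4, 155384980 to 155398112, minus strand) stands apart from other subunit genes.

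The sequences before the start sites of Gabra2, Gabra3 and Gabrb2 are shown because these members had the 3 largest differences between libraries. Each is the 250 bases before a RefSeq start site (GRCm38.p6), 5′ to 3′ on the gene's strand. Capitals mark every CG dinucleotide and every match to TATAAA on either strand. The Gabra2 stretch is chr5:71095850-71096099 on the minus strand, the Gabra3 stretch is chrX:72656920-72657169 on the minus strand and the Gabrb2 stretch is chr11:42420190-42420439 on the plus strand.
Gabra2: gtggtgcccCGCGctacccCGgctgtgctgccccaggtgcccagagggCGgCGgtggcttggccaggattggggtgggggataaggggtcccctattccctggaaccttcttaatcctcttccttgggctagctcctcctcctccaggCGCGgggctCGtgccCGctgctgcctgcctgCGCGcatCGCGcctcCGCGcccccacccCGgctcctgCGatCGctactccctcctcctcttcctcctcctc
Gabra3: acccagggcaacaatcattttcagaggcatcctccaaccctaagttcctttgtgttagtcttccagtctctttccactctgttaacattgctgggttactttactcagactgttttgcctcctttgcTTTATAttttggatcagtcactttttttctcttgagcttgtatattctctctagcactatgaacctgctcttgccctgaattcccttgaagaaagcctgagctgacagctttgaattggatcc
Gabrb2: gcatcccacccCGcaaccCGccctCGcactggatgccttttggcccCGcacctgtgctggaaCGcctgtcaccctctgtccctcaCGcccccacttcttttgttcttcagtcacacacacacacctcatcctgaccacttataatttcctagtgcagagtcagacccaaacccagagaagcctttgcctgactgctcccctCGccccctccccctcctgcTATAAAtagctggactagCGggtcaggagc
The first 2 of these, both higher in PS19 Zbp1+/- than in the other libraries, had unlike start regions. The Gabra2 stretch held 18 CG dinucleotides, and its window of 300 bases (250 before and 50 after the start) held 25 and had a GC content of 70.0%. The Gabra3 stretch held 0, as did its window, with a GC content of 43.0%. Over 32817 promoter windows of 300 bases the median was 7 CG dinucleotides, and 5.43% held none. In the Gabrb2 stretch TATAAA began 30 bases before the start site. Gabrb2 has further RefSeq start sites, at 42420774 and 42421201, whose stretches are not shown and whose windows held 0 matches to TATAAA. RefSeq windows were matched for 6 of the 7 members, Gabrd being the exception, which gave 10 windows. TATAAA was found on either strand in 3 of the 10 windows, of which 2 are overlapping Gabra3 windows with the same match, against 13.6% of all windows. The cAMP response element TGACGTCA (1.79% of all windows) and the EGR motif GCGTGGGCG (0.612% of all windows) were found in 0 of the 10. A match describes the letters only.

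Zbp1 itself, the targeted gene, was covered by 5 reads in WT, 91 in PS19 and 0 in the PS19 Zbp1+/- library, where a count of 0 allows up to 3 reads. Prnp, whose promoter drives the transgene, was at 405 FPKM in WT, 659 in PS19 and 512 in the PS19 Zbp1+/- library. Recovered whole reads summed to 16400328 to 17109734 per library. The PS19 Zbp1+/- library also differed in sex-linked transcripts, with 0 Xist reads and 268 to 711 reads for each of 4 Y-linked genes (Ddx3y, Eif2s3y, Kdm5d, Uty), where WT and PS19 had 11062 and 13350 Xist reads and 0 Y-linked reads. By these reads WT and PS19 were female and PS19 Zbp1+/- was male. Sex and Zbp1 genotype therefore cannot be told apart for any member, autosomal or X-linked, in the comparisons with PS19 Zbp1+/-. The neuronal, CA1, CA3 and dentate granule markers had reads in all 3 libraries, but markers of neighbouring tissue differed. The summed FPKM of 8 choroid plexus markers was 3132 (WT), 1920 (PS19) and 10.6 (PS19 Zbp1+/-), and that of 6 thalamus markers was 17.0, 49.4 and 10.1. For 6 cortex markers it was 41.3, 28.3 and 62.8. All differences below compare single libraries and have no replicate check. The intervals hold for counting error alone and leave out the spread between animals. They may be too narrow even for counting error, because PCR copies of a molecule could not be told from separate molecules.

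All 7 members were well expressed, with at least 377 reads in each library. Levels are in FPKM, read counts divided by gene length and library size, which allows genes to be compared. Gabra5 was the highest member by FPKM in each library, at 60.1 (WT), 42.6 (PS19) and 59.0 (PS19 Zbp1+/-). In reads not divided by length it ranked 1st, 2nd and 3rd among the members in the same libraries. Below Gabra5 the order by FPKM differed between libraries. In WT, Gabra4 (15.1), Gabra3 (14.3) and Gabra2 (13.2) followed, then Gabrb1 (10.5), Gabrd (9.70) and Gabrb2 (7.44), and the exact 95% counting intervals of the level overlapped between Gabra4 and Gabra3, between Gabra3 and Gabra2, and between Gabrb1 and Gabrd. In PS19 the order was Gabra4 (16.1), Gabrb1 (13.1), Gabrb2 (12.8), Gabra3 (10.5), Gabra2 (9.91) and Gabrd (9.21), with overlapping intervals between the beta members and between neighbours among the last 3. In PS19 Zbp1+/- it was Gabra2 (37.0), Gabra3 (27.0), Gabrb1 (15.4), Gabrb2 (13.7), Gabra4 (11.1) and Gabrd (8.29), and no neighbouring intervals overlapped. Gabra2 thus stood in the 4th place among the members in WT, in the 6th in PS19 and in the 2nd in PS19 Zbp1+/-.

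**Figure D1:**
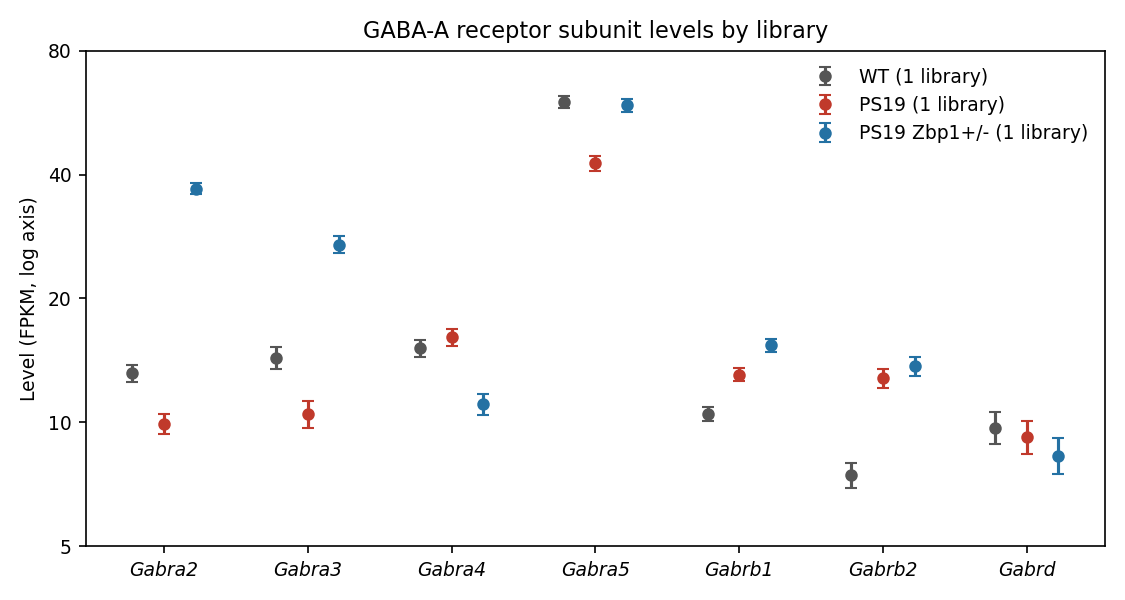
Level of each of the 7 members (FPKM, log axis) in the WT, PS19 and PS19 Zbp1+/- libraries, 1 library each; bars are exact 95% intervals for counting error. Gabra2 and Gabra3 are highest in PS19 Zbp1+/-, Gabra5 is lowest in PS19, and Gabrb2 is lowest in WT.

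Between PS19 and WT the 7 members were split. Gabrb2 and Gabrb1 were higher in PS19, Gabra5, Gabra3 and Gabra2 were lower, and Gabra4 and Gabrd differed little. Differences are given on the log2(FPKM + 1) scale, on which 1 unit is called 2-fold. By that measure 0 of the 7 members were at least 2-fold higher, beside 2.20% of 12703 protein-coding genes (those at an FPKM of 1 or more in at least 1 of the 2 libraries), and 0 were at least 2-fold lower, beside 0.291%. At 1.5-fold, 1 member was higher (Gabrb2), beside 6.34%, and 0 were lower, beside 2.71%. By any amount 3 members were higher and 4 lower, beside 46.3% and 53.7% of genes. The median over the members was -0.07, against -0.03 over all genes tested. Rescaling each library to the same sum gave a members' median of 0.050 and an all-gene median of 0.08, and scaling to the pan-neuronal markers gave 0.21 and 0.24. The members' median was below that of all genes under each of these scalings. Among genes with a mean FPKM of at least 5 the all-gene median was -0.08, slightly below the members' -0.07.

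Between PS19 Zbp1+/- and PS19 the alpha members parted most. Gabra2 and Gabra3 were more than 2-fold higher in PS19 Zbp1+/-, Gabra5 was higher by less, and Gabra4 was lower. In all, 2 of the 7 members were at least 2-fold higher, beside 2.0% of 12772 genes, and 0 were at least 2-fold lower, beside 5.16%. At 1.5-fold the same 2 members were higher, beside 9.37%, and 0 were lower, beside 12.1%. By any amount 5 were higher and 2 lower, beside 53.7% and 46.3%. The members' median was 0.22, against 0.04 over all genes. It was -0.047 after rescaling to the same sum, against -0.20 over all genes, and -0.21 after scaling to the pan-neuronal markers, against -0.35, which also left 1 member, Gabra2, at least 2-fold higher. Over all genes, that scaling put 0.523% at least 2-fold higher and 9.35% lower, and the same-sum scaling 0.861% and 7.43%. Between PS19 Zbp1+/- and WT, 1 member (Gabra2) was at least 2-fold higher, beside 1.07% of 12436 genes, and 0 were at least 2-fold lower, beside 2.28%. At 1.5-fold, 3 members were higher (Gabra2, Gabra3 and Gabrb2), beside 6.71%, and 0 were lower, beside 7.12%. By any amount 4 were higher and 3 lower, beside 51.0% and 49.0%. The median there was 0.51, against 0.01 over all genes, and 0.24 without Gabra2. The 3 comparisons share libraries and are not independent of each other.

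**Figure D2:**
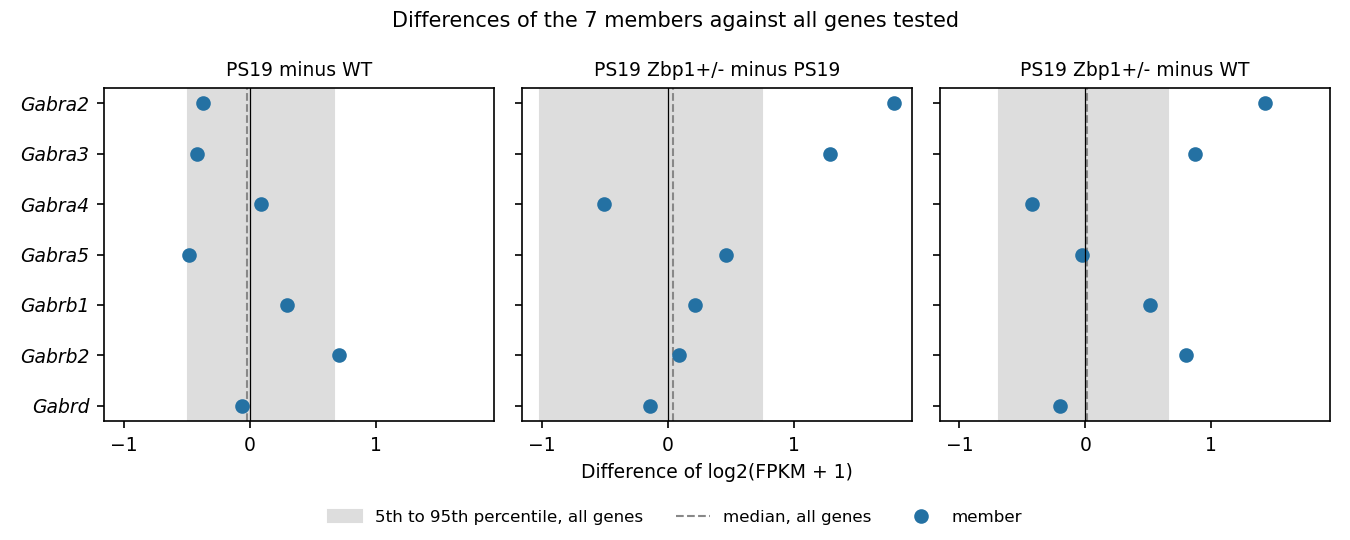
Difference of log2(FPKM + 1) for each of the 7 members in the 3 comparisons; grey bands run from the 5th to the 95th percentile of all genes tested, dashed lines are their medians. Gabrb2 lies above the band in PS19 minus WT, Gabra2 and Gabra3 in PS19 Zbp1+/- minus PS19, and all 3 in PS19 Zbp1+/- minus WT.

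Gabra2 encodes the alpha2 subunit, found at synapses of pyramidal neurons, including those on the axon initial segment. Its level was 13.2 FPKM in WT (1735 reads), 9.91 in PS19 (1309 reads) and 37.0 in PS19 Zbp1+/- (4472 reads). PS19 Zbp1+/- was above both other libraries, and PS19 was the lowest. As background, the brain level of Gabra2 is known to differ between C57BL/6J and other inbred strains. The labels give no substrain, so genetic background and Zbp1 genotype cannot be told apart in the values of this gene. In reads per library size the ratio was 3.73 for PS19 Zbp1+/- over PS19 (exact Clopper-Pearson 95% interval 3.51 to 3.97) and 2.81 over WT (2.66 to 2.97), while PS19 over WT was 0.753 (0.700 to 0.809). On the log2(FPKM + 1) scale the difference of 1.80 from PS19 was reached or exceeded by 19 of 12772 genes, Gabra2 included, and the difference of 1.42 from WT by 31 of 12436.

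Gabra3 encodes the alpha3 subunit, which is prominent early in development and in monoaminergic and cortical neurons of the adult. It stood at 14.3 FPKM in WT (970 reads), 10.5 in PS19 (710 reads) and 27.0 in PS19 Zbp1+/- (1679 reads). The order of the libraries was the same as for Gabra2, with a smaller gap. The read ratio was 2.58 for PS19 Zbp1+/- over PS19 (2.36 to 2.82), 1.89 over WT (1.74 to 2.04) and 0.730 for PS19 over WT (0.662 to 0.806). Since Gabra3 is X-linked and the PS19 Zbp1+/- library differed in Xist and Y-linked reads, the X chromosome was set beside the autosomes. The median difference between PS19 Zbp1+/- and PS19 was 0.06 over 429 X-linked genes and 0.04 over 12315 autosomal genes. The 1.29 of Gabra3 was reached by 3 of these X-linked genes, Gabra3 included, and by 91 of the autosomal genes.

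Gabra5 encodes the alpha5 subunit, enriched in hippocampal pyramidal neurons. Its level was 60.1 FPKM in WT (3084 reads), 42.6 in PS19 (2189 reads) and 59.0 in PS19 Zbp1+/- (2777 reads), so that PS19 was below both other libraries. The read ratio of PS19 over WT was 0.708 (0.670 to 0.749). It was 1.39 for PS19 Zbp1+/- over PS19 (1.31 to 1.47). For PS19 Zbp1+/- over WT it was 0.982 (0.932 to 1.03), an interval that includes 1 under the deposited scaling. That difference, -0.03 in log2(FPKM + 1), was -0.18 with scaling by total reads or to the same sum. With scaling to the pan-neuronal markers it was -0.26. Gabra2, Gabra3 and Gabra5 all had a lower level in PS19 than in WT. On the log2(FPKM + 1) scale their differences there were -0.38, -0.42 and -0.49, and 5.21% of all genes tested were as low as Gabra5 or lower. The pan-neuronal markers had a median of -0.31 in the same comparison, with 11 of 12 lower in PS19. Once each library was scaled to these markers the 3 differences were smaller in size, from -0.19 to -0.09. In the same comparison the medians of astrocyte, oligodendrocyte and microglia markers were 0.56, 0.81 and 1.49. In a bulk sample, fewer neurons, less RNA per neuron and more RNA from other cells cannot be told apart.

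Gabra4 and Gabrd encode the alpha4 and delta subunits, which pair in channels outside synapses that respond to neurosteroids. Gabra4 was at 15.1 FPKM in WT (1588 reads), 16.1 in PS19 (1694 reads) and 11.1 in PS19 Zbp1+/- (1064 reads), the lowest of the 3. Its read ratio was 0.686 for PS19 Zbp1+/- over PS19 (0.635 to 0.741) and 0.730 over WT (0.675 to 0.790), while the ratio of PS19 over WT, 1.06, had an interval that included 1 (0.994 to 1.14). Gabrd was at 9.70 FPKM in WT (481 reads), 9.21 in PS19 (458 reads) and 8.29 in PS19 Zbp1+/- (377 reads). PS19 over WT was 0.95 (0.834 to 1.08) and PS19 Zbp1+/- over PS19 was 0.899 (0.782 to 1.03). Both intervals include 1 under the deposited scaling, but this depends on the scaling. The Gabrd difference between PS19 Zbp1+/- and PS19, -0.14 in log2(FPKM + 1), was -0.30 with scaling by total reads. With scaling to the pan-neuronal markers it was -0.54. PS19 Zbp1+/- over WT was 0.854 (0.745 to 0.980). Gabra4 was the member furthest below its level in PS19, at -0.51 on the log2(FPKM + 1) scale, and 14.6% of all genes tested were as low or lower in that comparison.

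Gabrb1 and Gabrb2 encode beta subunits, which complete the GABA binding site together with an alpha subunit. Gabrb2 was at 7.44 FPKM in WT (816 reads), 12.8 in PS19 (1407 reads) and 13.7 in PS19 Zbp1+/- (1379 reads). Both libraries that carry the tau transgene were above WT, with read ratios of 1.72 (1.58 to 1.88) for PS19 and 1.84 (1.69 to 2.01) for PS19 Zbp1+/-. Between these 2 the ratio was 1.07 (0.993 to 1.15), an interval that includes 1. Gabrb1 was at 10.5 FPKM in WT (2499 reads), 13.1 in PS19 (3125 reads) and 15.4 in PS19 Zbp1+/- (3367 reads). It was higher in PS19 than in WT by a ratio of 1.25 (1.18 to 1.32), and in PS19 Zbp1+/- than in PS19 by 1.18 (1.12 to 1.24). On the log2(FPKM + 1) scale the 0.71 of Gabrb2 between PS19 and WT was reached by 4.44% of genes. That of Gabrb1 was 0.29, which 16.4% reached. The difference between PS19 Zbp1+/- and PS19 turned negative after scaling to equal sums or to the pan-neuronal markers for both genes, down to -0.21 for Gabrb1 and -0.34 for Gabrb2, and that of Gabrb2 also after scaling by total reads.

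The mix of the members also differed between libraries. As a share of the summed FPKM of the 7 members, Gabra2 made up 10.1% (WT), 8.68% (PS19) and 21.6% (PS19 Zbp1+/-). Gabra3 made up 11.0%, 9.17% and 15.8% in the same order. Gabra5 had its largest share in WT, with 46.1%, 37.3% and 34.4%. Gabra4 had 11.6%, 14.1% and 6.45%. The shares of Gabra4, Gabra5 and Gabrd were all smallest in PS19 Zbp1+/-, where those of Gabra2 and Gabra3 were largest. Shares of a common sum are bound to each other, and the Gabra5 share differed between WT and PS19 Zbp1+/- at 60.1 and 59.0 FPKM. Gabrb2 held 5.71%, 11.2% and 7.99%, and Gabrb1 8.03%, 11.4% and 8.97%, both largest in PS19, although the FPKM of both was highest in PS19 Zbp1+/-, where the summed FPKM of the members was 171 against 114 in PS19. Gabrd held 7.44%, 8.07% and 4.83%. Shares are shares of RNA, and no subunit protein or channel was measured.

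**Figure D3:**
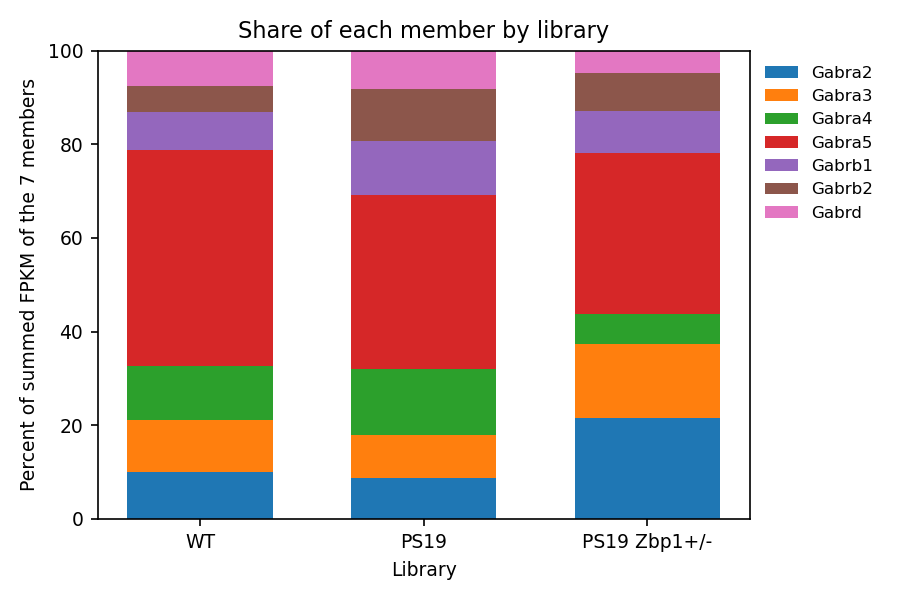
Share of each of the 7 members in their summed FPKM, in percent, by library (stacked bars, 1 library each). The Gabra2 share is 21.6% in PS19 Zbp1+/- against 10.1% in WT and 8.68% in PS19; the Gabrb2 share is smallest in WT, at 5.71%.

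Of the other GABA-A subunit genes, the gamma gene Gabrg1 was at 3.28 FPKM (WT), 3.20 (PS19) and 2.53 (PS19 Zbp1+/-). Gabrg3, another gamma gene, was at 1.60, 2.0 and 2.21 in the same order. When PS19 Zbp1+/- was compared with PS19, 6 of the 12 other genes entered the comparison, with 0 at least 2-fold higher and 1 lower. That gene was Gabrr2, a rho subunit best known from the retina, with 26 reads in WT, 67 in PS19 and 1 in the PS19 Zbp1+/- library. Its ratio for PS19 over WT was 2.57 (1.61 to 4.22). That of PS19 Zbp1+/- to PS19 was 0.0163 (0.000407 to 0.0940). Gabra6, Gabre, Gabrp, Gabrq, Gabrr1 and Gabrr3 were below an FPKM of 1 in each library.

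In PS19 Zbp1+/- over PS19, no expressed protein-coding gene near Gabra2 or Gabra3 was higher by as much as the member itself. A window of 1000 kb on each side was chosen after the values were seen. Gabra2 and Gabra3 are the members with the largest differences in this comparison. Of the 12772 genes tested, 0.149% were as high as Gabra2 and 0.783% as high as Gabra3. A window of few genes would thus seldom hold another gene as high. The 4 other such genes near Gabra2 (Gabrg1, Cox7b2, Gabra4 and Gabrb1) differed by -0.62 to 0.22 on the log2(FPKM + 1) scale. Their median was -0.38, against 1.80 for Gabra2. Near Gabra3, 11 genes differed by -1.29 to 0.91, with a median of 0.10, against 1.29. Gabra4 and Gabrb1 lie head to head on opposite strands and overlap by 0.195 kb at their starts. They differed in opposite directions between PS19 Zbp1+/- and WT, at -0.42 and 0.51. Their exons share 46 bases, 0.756% of the Gabra4 exons. Whether the counting used strand is not given in the sources used here. Gabra5 shares 148 exonic bases, 4.98% of its length, with the antisense gene Gm9962, which had 22 to 26 reads in each library.

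**Figure D4:**
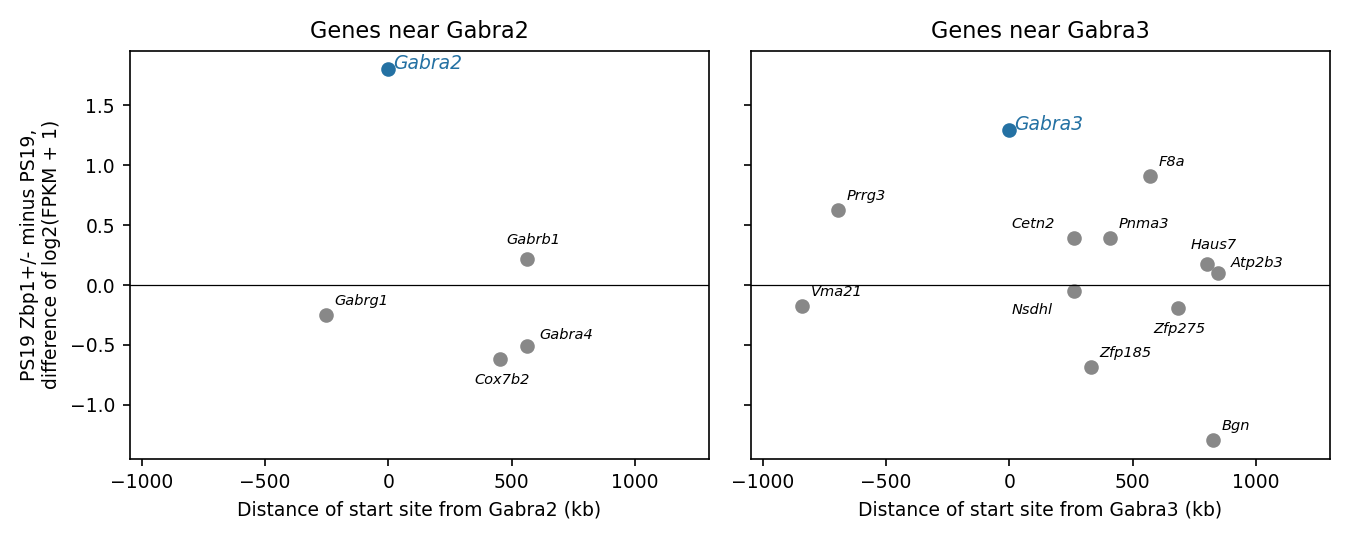
Difference of log2(FPKM + 1) between PS19 Zbp1+/- and PS19 for expressed protein-coding genes, by distance of the start site from that of Gabra2 (left) and Gabra3 (right) in kb. Each member, in blue at 0 kb, lies above all genes in its window, at 1.80 and 1.29. Of all genes tested, 0.149% and 0.783% were as high.

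Genes that make, move and anchor the GABA system were read beside the members. For the inhibitory postsynapse list, 8 of 9 genes were higher in PS19 Zbp1+/- than in PS19, beside 53.7% of all genes, with a median of 0.42 and 0 genes past 2-fold. In the same comparison all 12 pan-neuronal markers were higher, with a median of 0.46. Neuroligin 2 (Nlgn2), an adhesion protein of inhibitory synapses, was at 49.9, 48.5 and 84.4 FPKM in WT, PS19 and PS19 Zbp1+/-. The receptor's auxiliary subunit gene Shisa7 was at 27.0, 26.4 and 45.7, and the scaffold gene Gphn (gephyrin) at 16.9, 16.2 and 17.6. Of 12 genes for receptor traffic 10 were higher, with a median of 0.37, and 1 passed 2-fold, Hap1, which links receptors to kinesin motors (59.1, 40.5 and 86.7 FPKM). The GABA synthesis, uptake and breakdown list stayed near 0 in this comparison, with a median of -0.05 over 8 genes. Its synthetic enzymes were not 2-fold apart, Gad1 at 47.9, 47.9 and 46.1 FPKM and Gad2 at 27.1, 35.4 and 29.0. Of the 8, the transporter gene Slc6a13 alone was past 2-fold, and lower, at 3.59, 3.13 and 1.0. Between PS19 and WT this list was mostly higher, in 7 of 8 genes, beside 46.3% of all genes, with a median of 0.23.

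Chloride transporters set the direction of current through the receptor, and GABA-B receptors are its metabotropic counterpart. Slc12a5, which keeps neuronal chloride low, was at 76.8 FPKM in WT, 74.7 in PS19 and 99.0 in the PS19 Zbp1+/- library. Slc12a2, a chloride importer that glia and choroid plexus also express, was at 20.9, 28.8 and 8.23. Of the 6 chloride genes, 1 (Slc12a2) was 2-fold or more below its PS19 level in PS19 Zbp1+/-. The GABA-B subunit gene Gabbr2 was at 29.1, 40.5 and 59.6, and of the 5 GABA-B genes it was the 1 past 2-fold in PS19 Zbp1+/- over WT. Of 5 glycine receptor genes, relatives of the members, 2 entered the comparison of PS19 Zbp1+/- with PS19 and differed by 0.08 (Glra2) and 0.26 (Glrb).

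**Figure D5:**
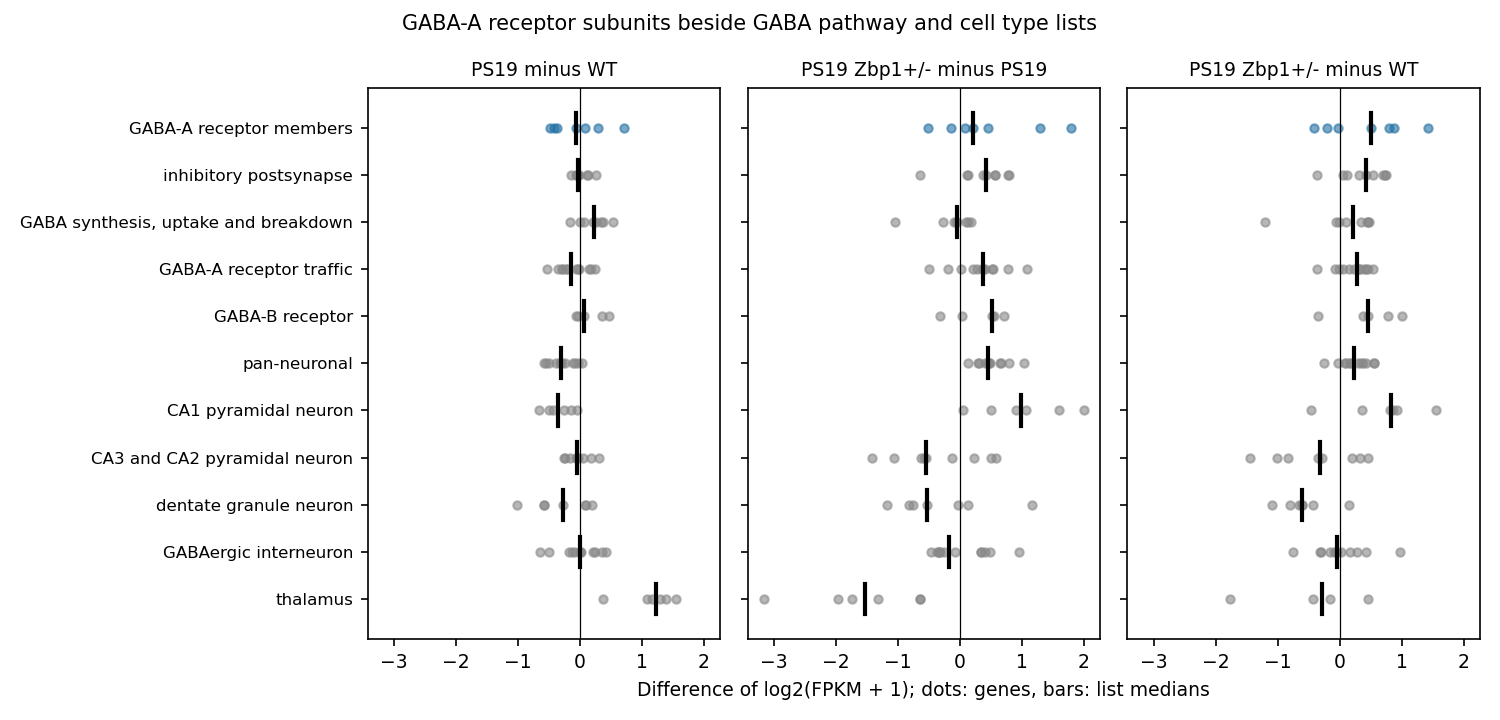
Difference of log2(FPKM + 1) for the members, GABA pathway lists and cell type lists in the 3 comparisons; each dot is a gene that entered the comparison and each bar a list median. In PS19 Zbp1+/- minus PS19 the CA1 and pan-neuronal medians are 0.98 and 0.46 and the dentate granule median is -0.53; the thalamus median is 1.22 in PS19 minus WT.

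Markers of neuron types differed between the libraries in the same comparisons, and their part in the members' differences was not tested. All 12 pan-neuronal markers were higher in PS19 Zbp1+/- than in PS19, with a median of 0.46, and all 6 CA1 pyramidal markers, with a median of 0.98 and 3 past 2-fold. Among these were Fibcd1, at 37.0, 27.0 and 111 FPKM in WT, PS19 and PS19 Zbp1+/-, and Mpped1, at 50.1, 31.3 and 96.3. Both had the library order of Gabra2 and Gabra3 (highest in PS19 Zbp1+/-, lowest in PS19). In all, 5 of the 6 CA1 and 9 of the 12 pan-neuronal markers had it. So had 6 of 9 inhibitory postsynapse and 7 of 12 receptor traffic genes, 3 of 9 CA3 and CA2 markers and 3 of 12 interneuron markers. The CA1 marker without this order was Wfs1, at 38.8, 27.1 and 28.0 FPKM. Its ratio of PS19 Zbp1+/- over PS19 was 1.03 (0.965 to 1.10), and over WT it was 0.721 (0.677 to 0.767). Summed FPKM of the CA1 list was 167, 121 and 306. Dentate granule markers were lower in 5 of 7 genes tested, with a median of -0.53. Of these 7 genes, 3 had the library order of Gabra4 (highest in PS19, lowest in PS19 Zbp1+/-), namely Prox1 (8.76, 9.51 and 5.20 FPKM), Dsp (3.86, 4.13 and 1.28) and Sema5a (4.58, 5.42 and 2.65). The ratio intervals of PS19 over WT included 1 for Gabra4 (0.994 to 1.14) and Dsp (0.959 to 1.19). For these genes only the lowest place of PS19 Zbp1+/- is thus beyond counting error under the deposited scaling. C1ql2 (51.0, 34.0 and 37.5), Stxbp6 (18.0, 14.7 and 9.86), Trpc6 (4.89, 2.95 and 2.87) and Calb1 (24.6, 11.6 and 27.3) were highest in WT or, for Calb1, in PS19 Zbp1+/-. The order of Gabra4 was also that of 8 of 8 oligodendrocyte markers and 5 of 6 thalamus markers. It was found too in 3 of 8 astrocyte, 3 of 8 microglia, 3 of 9 CA3 and CA2 and 4 of 12 interneuron markers. The share of all genes with the order of Gabra2 or of Gabra4 was not determined, so these counts do not set the dentate granule or CA1 list apart. The CA3 and CA2 list had a median of -0.54, with 6 of 9 genes lower, and the interneuron list -0.17, with 7 of 12 lower. Against the pan-neuronal markers the log2 FPKM ratio of Gabra2 between PS19 Zbp1+/- and PS19 was 1.44, that of Gabra3 0.90, that of Gabra5 0.01 and that of Gabra4 -1.01.

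Beside the higher Gabrb2 and Gabrb1 levels in PS19, all 6 thalamus markers were higher in PS19 than in WT, 5 of them at least 2-fold, with a median of 1.22. Prkcd was at 8.15, 23.1 and 1.69 FPKM in WT, PS19 and PS19 Zbp1+/-. Slc17a6, of the same list, was at 2.98, 7.48 and 4.46. The part of thalamus markers in the beta members' levels was not tested. Astrocyte, oligodendrocyte and microglia markers, at 8 genes each, had medians of 0.56, 0.81 and 1.49 between PS19 and WT, with 8, 8 and 7 of 8 genes higher. In PS19 Zbp1+/- over PS19 their medians were -0.61, -1.40 and -1.15. Cortex markers had a median of 0.48 in that comparison, with 2 of 5 at least 2-fold higher. These 2, Fezf2 (14.4, 9.62 and 33.9 FPKM in WT, PS19 and PS19 Zbp1+/-) and Tbr1 (9.73, 5.54 and 12.8), had the library order of Gabra2 and Gabra3. Striatum markers had a median of 0.20. The part of these tissues and cell types in the members' differences was not tested. No marker of these lists was at 0 reads in a library, apart from 1 choroid plexus marker in PS19 Zbp1+/-.

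Over 7706 protein-coding genes with a mean FPKM of at least 5, the 3 genes whose centred log2(FPKM + 1) values over the 3 libraries lay closest to the members' median profile were Rims2, Ppargc1a and Lsamp. Their largest deviations from it were 0.04 log2 units each. Rims2 was at 5.84, 6.74 and 7.99 FPKM, and Lsamp at 16.9, 19.4 and 22.6. Of the members Gabrb1 lay closest to that profile, at 0.12, and Gabra2 farthest, at 0.83. A likeness over 3 libraries is a description only.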

How the data were processed

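RNA of 1 hippocampal sample per genotype (3 in all) was extracted with TRIzol and made into libraries with an NEB Next Ultra RNA kit, per the labels' protocols. The authors deposited 1 table of FPKM values for 54532 genes. Trim Galore 0.6.5, STAR 2.5.3a, featureCounts 2.0.4 and the build mm39 are named in the submitters' processing notes, without role or order. Gene positions in the table were compared with GENCODE M21 (GRCm38): of 54409 shared IDs 98.3% had equal positions, as had all 7 members, so positions are given as GRCm38. The lengths of the 7 members equal the union of their GENCODE exons.

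Each FPKM times gene length was a whole multiple of 1 step (within 0.01) in 100% of values, so whole reads were recovered. The sums were 16746085 (WT), 16400328 (PS19) and 17109734 (PS19 Zbp1+/-). The steps imply library sizes of 17253479, 17287957 and 15826984, so the deposited FPKM carry a scaling other than the read total. Differences are of log2(FPKM + 1), over protein-coding genes that reach an FPKM of 1 in at least 1 of the 2 libraries, and 2-fold means 1 unit. With 1 library per genotype no test was made. Read ratios use the implied library sizes and have exact 95% intervals (Clopper-Pearson), and level intervals are exact Poisson. Whether a ratio interval includes 1 can therefore depend on this scaling.

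Genes were named by rule: the 7 members, the other subunits each, from each further list up to 3 genes with the largest absolute difference and any whose role beside a member is described, Zbp1, and the 3 protein-coding genes (mean FPKM of at least 5) nearest in profile to the members' median. In all 20 lists were used. Some genes of the rule are not reported here. Neighbouring genes were added after their values were seen. The members and lists were chosen with earlier results of these data known. Transcripts of the members were searched against all GENCODE M21 transcripts with BLAST 2.17.0, and at 90% identity or more only Gabra5 matched another gene, Gm9962. The procedure was tested on simulated data. Alternatives were pseudocounts of 0.1 and 0.5, no filter or a mean FPKM of at least 5, libraries scaled to the same sum, to a median ratio of 1, by total reads or to the pan-neuronal list, genes of every biotype, thresholds of 1.5-fold and 4-fold, the mean, the median without the most changed member, and shares over the members alone or in reads. Software was scipy 1.17.1, numpy 2.4.6, matplotlib 3.10.9 and pandas 2.3.3 under Python 3.11.15.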

Additional observations from a re-analysis of the deposited data

How the results depend on the processing

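No replicate could be left out, and no paired analysis was possible because each genotype has 1 library. Under the 6 settings that can change the value of a single gene, 75 of 126 values for single members moved by less than their counting error and 51 by more. None of the Gabra2, Gabra3, Gabra4 and Gabra5 differences changed sign under the settings run. Signs changed for Gabrb1 (2 settings) and Gabrb2 (3) between PS19 Zbp1+/- and PS19, and for Gabrd (2) between PS19 and WT, where it ranged from -0.07 to 0.21. The scalings moved the median of all genes by up to 0.39 log2 units, in the same direction as the members' median.

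The members' median between PS19 and WT, -0.07, was 0.050 with libraries rescaled to the same sum and 0.21 with scaling to the pan-neuronal markers. Between PS19 Zbp1+/- and PS19 the median of 0.22 was -0.047 and -0.21 under these 2 scalings, 0.043 with scaling by total reads and 0.46 as a mean. Between PS19 Zbp1+/- and WT the median of 0.51 was 0.37 with both the same sum and total reads, 0.29 with the pan-neuronal markers, 0.42 as a mean and 0.24 without Gabra2.

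A threshold of 1.5-fold gave 1 higher member in PS19 over WT and 3 in PS19 Zbp1+/- over WT. A threshold of 4-fold left 0 higher in either comparison of PS19 Zbp1+/-, and scaling to the pan-neuronal markers left 1 over PS19. These changes follow from the thresholds and scalings themselves.

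The share of Gabra5 in the summed FPKM of all 19 GABA-A genes was 24.8% (WT), 19.6% (PS19) and 20.7% (PS19 Zbp1+/-). Over the members alone it was 46.1%, 37.3% and 34.4%, and in reads not divided by length 12.8%, 9.53% and 10.1%. For Gabra2 the shares of 5.44%, 4.55% and 13.0% became 10.1%, 8.68% and 21.6% over the members, and 7.18%, 5.70% and 16.3% in reads.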
